A study of Mus musculus with 8 samples.

Results

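The 8 gamma crystallin genes of the mouse, Cryga, Crygb, Crygc, Crygd, Cryge, Crygf, Crygn and Crygs, were examined together with the open chromatin peaks in and around them. They were taken by name from the RefSeq annotation of GRCm38, the assembly called mm10, and all 8 were found among its 19631 protein-coding genes of at least 1 kb. A window ran from 50 kb before to 50 kb after each gene, and every peak that overlapped a window was kept. This kept 48 of 100003 E14.5 epithelium peaks and 96 of 123743 E14.5 fiber peaks. At P0.5 it kept 24 of 58592 epithelium peaks and 41 of 62995 fiber peaks. The peaks came from ATAC-seq, in which the transposase Tn5 cuts accessible DNA and leaves sequencing adaptors there. Lenses of CD1 mice, an outbred stock with no engineered allele or treatment in the labels, were dissected into epithelium and fibers at an embryonic stage, E14.5, and just after birth, at P0.5. Each of these 4 groups had 2 libraries, each made from several pooled lenses, and the authors called 1 list of peaks per group from the pooled reads of both.

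Gamma crystallins are small soluble proteins folded from Greek key motifs. They are packed at very high concentration in the lens fibers, where they raise the refractive index, and mutations in them are a known cause of cataract. The lens epithelium is the anterior layer of dividing cells. Its cells leave the cell cycle, elongate and become fibers. Cryga to Crygf are known as genes of the fibers, Crygs is known for its rise in later, cortical fibers, and Crygn is a divergent member whose gene structure lies between those of beta and gamma crystallins.

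Neither reads nor values of a single library can be read from the lists. No value below therefore has an error between replicates, none was tested, and the depth behind it is not known from the lists. The methods of the authors also name different cell numbers, more at P0.5 than at E14.5 and, at P0.5, more in epithelium than in fibers. Cell input can therefore not be told apart from stage or, at P0.5, from tissue. Coverage of a gene is the percentage of its bases inside peaks of a list. Fold enrichment of a peak over its local background served only to rank peaks within their own list. Ranks are given as a percentage of the list, smallest for the strongest peak, and tied peaks share a rank. A percentage depends on the length of its list, since a longer list adds weak peaks below the others, so percentages of different lists are set side by side and not compared. The lists also differ in the median width of their peaks, which was 226 bp (E14.5 epithelium), 298 bp (E14.5 fibers), 209 bp (P0.5 epithelium) and 185 bp (P0.5 fibers). Where 4 values follow each other below, they are in this order, the list order. As a check of the labels, 6 of 6 fiber markers (Mip, Lim2, Bfsp1, Bfsp2, Gja3, Dnase2b) had more coverage in fibers than in epithelium at both stages, as had 66.6% of all genes at E14.5 and 35.8% at P0.5. Of 6 epithelium markers (Foxe3, Pax6, Cdh1, Sox2, Wnt7b, Pdgfra), 1 had more coverage in epithelium at E14.5 (15.0% of all genes) and 4 did at P0.5 (43.9%). The other 5 had more in fibers at E14.5, so the markers were no check of the labels at that stage. Of 6 markers of retina, cornea, vessels and blood, 0 reached 50% coverage in any list, which few genes did (0.341 to 3.69% of all genes by list). Krt12 and Hbb-bt were at 0% in all 4 lists, the retina gene Rax was covered over 24.2%, 26.7%, 13.9% and 8.99%, and the vessel gene Kdr had a promoter peak in all 4. The part of such cells in the results was not tested.

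Of the 8 genes, 5 lie in 1 cluster on chromosome 1, all on the minus strand. In GRCm38 they follow each other as Cryge (chr1:65048555-65051816), Crygd (chr1:65061838-65063440), Crygc (chr1:65071525-65073532), Crygb (chr1:65080222-65082290) and Cryga (chr1:65100389-65103363). Crygf stands alone, 823.158 kb beyond Cryga, on the plus strand (chr1:65926522-65928311). Crygn is on the minus strand of chromosome 5 (chr5:24751002-24757848) and Crygs on the minus strand of chromosome 16 (chr16:22805203-22811410). Crygn has 4 exons and the other 7 genes have 3, of which exon 2 is 243 bp long in each.

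The sequences just upstream of the start sites show how alike these genes are, and several summits described further on lie in them. All 8 genes have an entry among the RefSeq promoter sequences of GRCm38.p6. The last 150 bp before the start site are printed for 6 of them, 5′ to 3′ on the strand of the gene, with capitals for TATATA, for its variant TATAAA and for the run TTTGTG.
Cryga (chr1:65103364-65103513, minus strand): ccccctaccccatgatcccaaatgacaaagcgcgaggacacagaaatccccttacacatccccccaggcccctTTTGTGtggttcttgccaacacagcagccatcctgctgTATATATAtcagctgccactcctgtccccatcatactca
Crygc (chr1:65073533-65073682, minus strand): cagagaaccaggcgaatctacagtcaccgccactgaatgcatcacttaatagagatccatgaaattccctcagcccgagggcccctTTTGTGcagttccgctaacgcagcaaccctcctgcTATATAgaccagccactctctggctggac
Crygd (chr1:65063441-65063590, minus strand): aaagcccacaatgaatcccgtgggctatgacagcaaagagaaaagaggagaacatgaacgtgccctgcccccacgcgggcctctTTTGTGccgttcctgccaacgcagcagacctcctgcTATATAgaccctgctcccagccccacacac
Crygf (chr1:65926372-65926521, plus strand): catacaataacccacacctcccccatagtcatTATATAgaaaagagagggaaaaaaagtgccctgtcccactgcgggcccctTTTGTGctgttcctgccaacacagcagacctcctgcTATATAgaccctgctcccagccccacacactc
Crygn (chr5:24757849-24757998, minus strand): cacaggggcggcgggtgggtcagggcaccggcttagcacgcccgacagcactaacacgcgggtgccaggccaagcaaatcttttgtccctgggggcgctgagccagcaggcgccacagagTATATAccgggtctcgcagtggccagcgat
Crygs (chr16:22811411-22811560, minus strand): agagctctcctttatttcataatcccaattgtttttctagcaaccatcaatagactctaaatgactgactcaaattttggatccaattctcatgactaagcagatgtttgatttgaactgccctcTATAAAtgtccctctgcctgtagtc

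TATATA, a variant of the TATA box that was searched for after the sequences had been seen, began between 45 and 10 bp upstream of the start site in 7 of the 8 genes and in 395 of the 32851 promoter sequences of RefSeq. Crygs held TATAAA there instead, as did 2.35% of all promoters. The letters TTTGTG were also chosen after the sequences had been seen, as a run shared by Cryga to Crygf near the same position. Their reverse complement, CACAAA, overlaps the core that Sox factors are known to bind. They began 77 bp upstream in Cryga, 68 bp in Crygb and in Crygf, 64 bp in Crygc, 66 bp in Crygd and 54 bp in Cryge, and 17.7% of all promoters held them on either strand. The longest run that at least 4 of Cryga to Crygf shared was CCTCCTGCTATATAGACC, around the TATATA of Crygc, Crygd, Cryge and Crygf, and these 4 were the only ones of the 32851 sequences that held it.

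Over the 100 bp upstream of the start site, the 15 pairs among Cryga to Crygf were identical at 61 to 89% of the bases. The most alike were Crygd, in the cluster, and Crygf, outside it. The 13 pairs with Crygn or Crygs were identical at 44 to 59%.

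The other motifs searched were less widely shared in the 300 bp from 250 bp before to 50 bp after the start site, on either strand. TGCTGA, part of the site bound by Maf factors, was in Cryga, Crygc, Crygn and Crygs, 4 of 8, and in 19.5% of all promoters. Maf is a factor that lens fibers need for crystallin expression. ACAAAG, a Sox motif, was in Cryga and Crygb (18.7% of all promoters), and ACAATG, another, in Crygd and Crygs (12.6%). TTTGTG overlaps the match in Crygb. A motif of nuclear receptors, AGGTCA, was in Cryga, Crygf and Crygn (16.3%). The AP-1 motif TGACTCA was in Crygn, where it overlaps TGCTGA, and in Crygs (5.20%), and the Pitx motif TAATCC was in Crygs (7.06%). GAANNTTC of heat shock factors, GATAAG of Gata factors, GGAATG of Tead factors and the CTCF motif were in 0 of 8, against 7.86%, 7.44%, 14.7% and 3.43% of all promoters. A match is a run of letters and not a bound site.

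In E14.5 fibers peaks covered 82.2% or more of every gamma crystallin gene but Crygs, and in E14.5 epithelium from 0%, in Crygf and Crygs, to just short of 50%, in Cryge. Cryga was covered over 13.8%, 100%, 3.60% and 36.8% in list order. Crygb was covered over 3.43%, 100%, 0% and 24.0%. In both genes the E14.5 fiber list was the highest and the P0.5 fiber list came next.

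Crygc, with 22.0%, 82.2%, 1.89% and 6.97%, and Crygd, with 18.0%, 100%, 8.80% and 12.5%, had more coverage in E14.5 epithelium than in P0.5 fibers. Cryge had 1630 of its 3262 bp covered in E14.5 epithelium, the largest share of the 8 genes in that list. In the other 3 lists it had 100%, 6.65% and 23.5%. Its annotated body holds 655 bp that lie outside the curated transcript, most of them upstream of the start site used here, and over the curated transcript alone the coverage was 37.5%, 100%, 8.32% and 29.5%. In the other 7 genes both bodies are the same.

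The 3 genes outside the cluster differed from each other. Crygf was covered over 0%, 100%, 0% and 7.71%, and Crygn over 18.3%, 98.0%, 9.46% and 17.4%. Crygs was covered over 0%, 19.3%, 0% and 0%, so E14.5 fibers was the only list with a peak on the gene.

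In E14.5 fibers 7 of the 8 genes had at least 50% of the body covered, with Crygs as the exception, against 3.69% of all genes and 13.1% of the 4447 genes of 1 to 7 kb, the range of lengths that holds the 8 genes. The count was 0 of 8 in E14.5 epithelium (1.91% of all genes and 7.74% of those of 1 to 7 kb), 0 of 8 in P0.5 epithelium (0.341% and 1.48%) and 0 of 8 in P0.5 fibers (0.520% and 2.23%). The median of the 8 genes was 15.9%, 100%, 2.74% and 15.0% in list order. That of all 19631 genes was 2.71%, 4.23%, 1.51% and 1.38%, and that of genes of 1 to 7 kb was 7.95%, 11.3%, 2.90% and 3.20%. The plot of gene body coverage shows these values gene by gene.

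**Figure D1:**
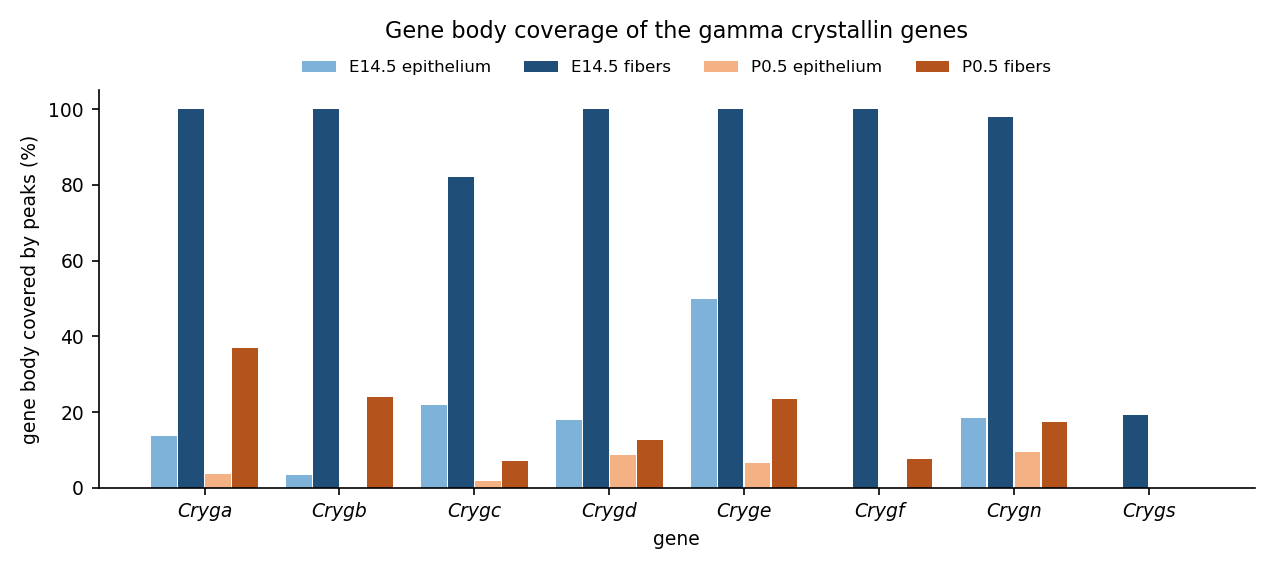
Percentage of each gamma crystallin gene body covered by peaks, with 1 bar per pooled list and no error bars since each list is a single value. The E14.5 fiber bars stand at 82.2% or higher in 7 genes and at 19.3% in Crygs.

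Coverage was at least 10 percentage points higher in E14.5 fibers than in E14.5 epithelium for 8 of 8 genes, a difference that 9.09% of all genes and 19.4% of genes of 1 to 7 kb showed. The differences ran from 19.3 points in Crygs to 100 points in Crygf. They stayed above 0 for all 8 genes with equal numbers of peaks in each list and with a q value under 0.001, though Crygs then differed by 5.77 points, under the 10 points of the count, and by 14.6 points. Crygs had the smallest difference under both.

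At P0.5, coverage was at least 10 points higher in fibers for 3 of 8 genes, Cryga (33.2 points), Crygb (24.0 points) and Cryge (16.9 points), against 2.95% of all genes and 9.13% of genes of 1 to 7 kb. With a q value under 0.001, Cryge differed by 0.276 points. Crygd differed by 3.74 points as deposited and by -1.62 points with that q value, in favour of epithelium. The reverse difference of at least 10 points was seen in 0 of 8 genes at either stage (0.535% of all genes at E14.5 and 1.21% at P0.5).

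Between the stages, 8 of 8 genes had at least 10 points more coverage in E14.5 than in P0.5 fibers, against 17.5% of all genes and 37.8% of genes of 1 to 7 kb. Higher coverage at P0.5 by that much was seen in 0 of 8 genes (0.270% of all genes). The smallest difference was again that of Crygs, 19.3 points, and the largest that of Crygf, 92.3 points. With equal numbers of peaks Crygs fell to 5.77 points, which left 7 of 8 genes in the count. In epithelium, 3 of 8 genes had at least 10 points more at E14.5, Cryge (43.3 points), Crygc (20.1 points) and Cryga (10.2 points), against 8.94% of all genes and 25.1% of genes of 1 to 7 kb. The call of Cryga was lost under both other peak sets, with 3.76 points at a q value under 0.001 and -3.60 points, in favour of P0.5, with equal numbers of peaks. The reverse was seen in 0 of 8 (0.0662% of all genes). The E14.5 fiber list enters both fiber comparisons, so they are not independent of each other.

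The form of the peaks differed as well. A single peak of 6333 bp spanned Cryge in E14.5 fibers, 1 of 4172 bp spanned Crygd, 1 of 3335 bp Crygb and 1 of 4877 bp Cryga. Crygc was split between a peak of 2963 bp over its 3′ part and 1 of 1524 bp over its start. Crygf lay inside a peak of 7736 bp, the 19th widest of the 123743 peaks of the list, and most of Crygn inside 1 of 11984 bp, the 5th widest. In the other 3 lists the widest peak that touched a gamma crystallin gene measured 1172 bp, in E14.5 epithelium, and reached from the first exon of Cryge to its upstream side. The map of peaks over the genes shows the long E14.5 fiber blocks beside the short peaks of the other lists.

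**Figure D2:**
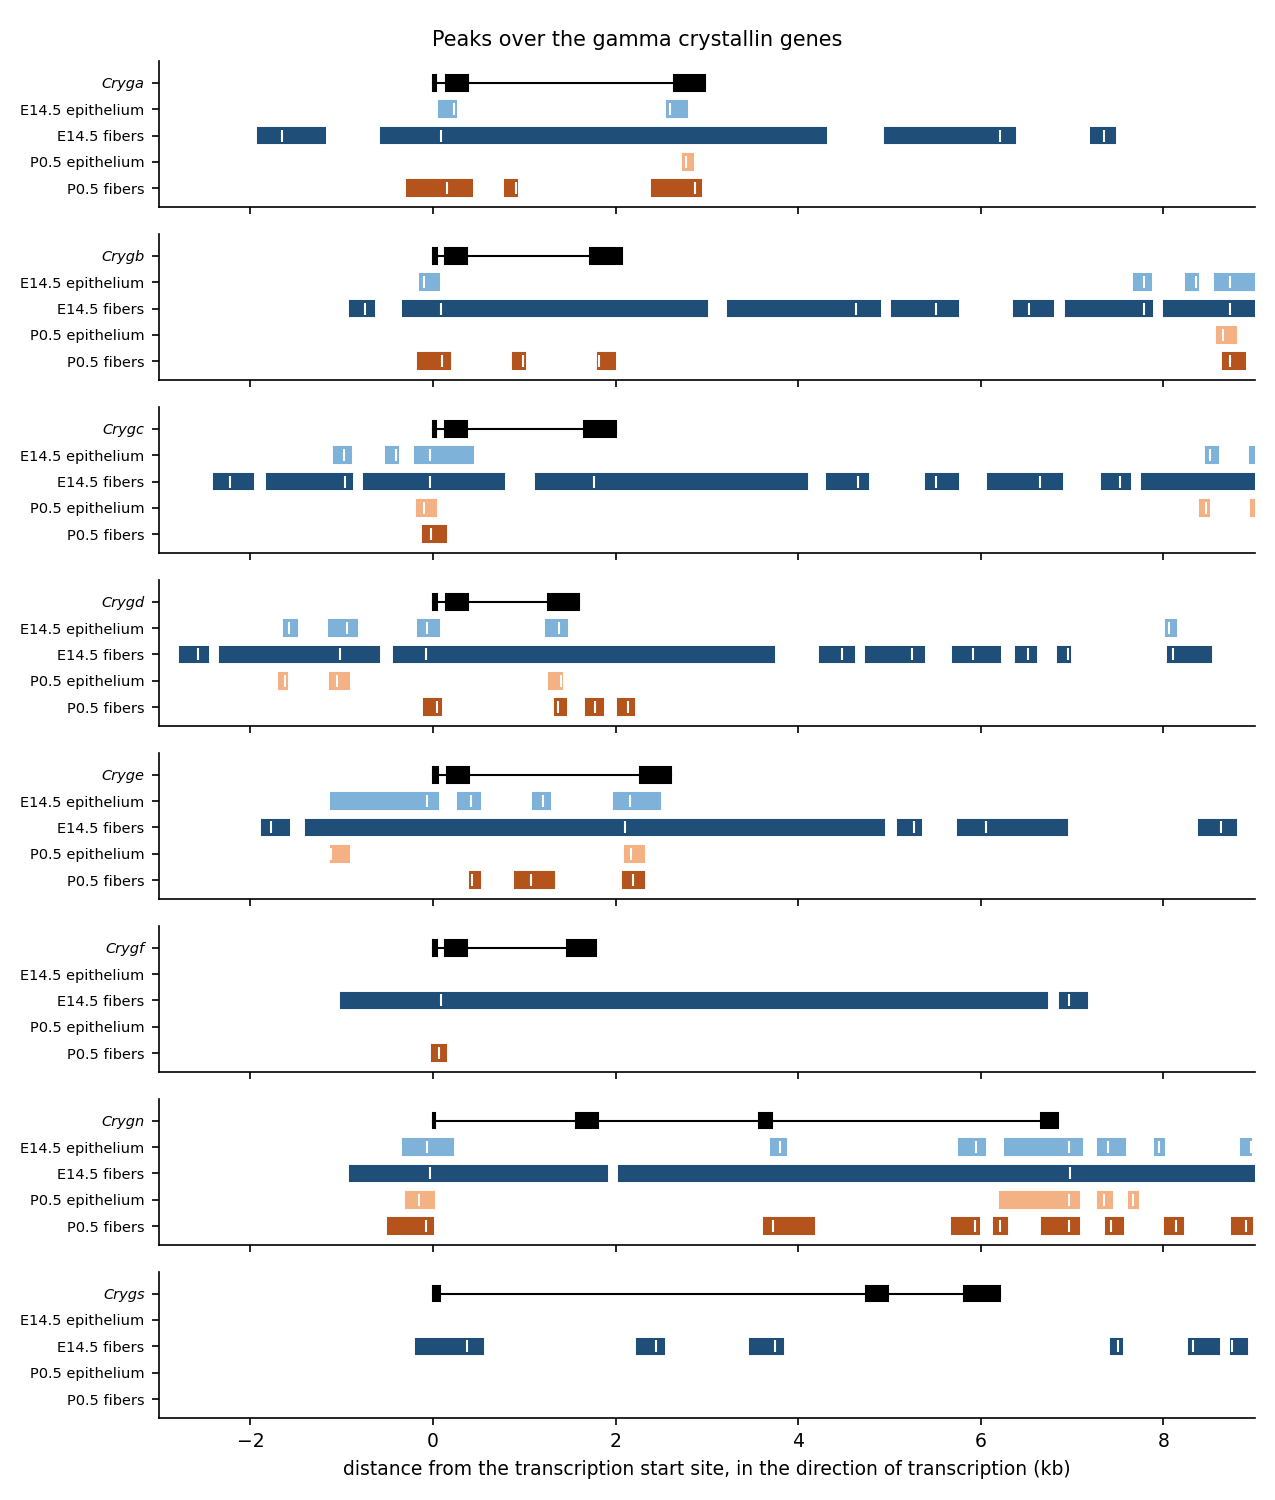
Peaks of the 4 lists over the 8 gamma crystallin genes, from 3 kb upstream to 9 kb downstream of the start site in the direction of transcription, with exons in black, peaks as coloured blocks and their summits as white ticks. E14.5 fiber peaks cover 82.2% or more of 7 genes, while peaks of the other lists are short and often sit at the start site or the last exon, and Crygs has peaks of E14.5 fibers alone.

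Peaks at the start and at the last exon were compared with those of all genes. A summit lay within 250 bp of the start site in 6, 6, 2 and 6 of the 8 genes in list order, against 56.3%, 55.7%, 55.0% and 49.2% of all genes, and the 2 genes in P0.5 epithelium were Crygc and Crygn. The last exon was overlapped by a peak in 4, 7, 4 and 5 genes, against 16.8%, 21.0%, 9.73% and 14.8% of all genes. Cryga, Crygd, Cryge and Crygn had such a peak in all 4 lists.

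Crygc had the start site at which the lists came closest to each other. Its summits stood 28 bp upstream in E14.5 epithelium, 28 bp in E14.5 fibers, 103 bp in P0.5 epithelium and 27 bp in P0.5 fibers. Those at 27 and 28 bp fall on the TATATA shown in capitals above, which begins 29 bp upstream. The ranks of these peaks were 9.74%, 3.57%, 58.5% and 21.4%, and the summit of P0.5 epithelium was the farthest upstream. Peak coverage of exon 2 was 100% in both E14.5 lists, 4.94% in P0.5 fibers and 0% in P0.5 epithelium. Of the 75-base stretches that touch this exon, 47.3% occur more than once in the genome. The coverage of exon 2 is therefore uncertain as to the gene.

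Crygd and Cryga had a start site summit in every list but P0.5 epithelium. In Crygd it lay 69 bp upstream in E14.5 epithelium, 72 bp upstream in E14.5 fibers and 47 bp downstream in P0.5 fibers, at ranks of 29.0%, 5.76% and 48.9%. A further site 947 to 1051 bp upstream of Crygd held a summit in both E14.5 lists and in P0.5 epithelium but none in P0.5 fibers. In Cryga the summits lay 231 bp (E14.5 epithelium), 83 bp (E14.5 fibers) and 149 bp (P0.5 fibers) downstream of the start site, in exon 2 or intron 1.

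In Crygb the summits lay 94 bp upstream in E14.5 epithelium, 83 bp downstream in E14.5 fibers and 101 bp downstream in P0.5 fibers. P0.5 epithelium had no peak on this gene. In Crygf they lay 90 bp downstream in E14.5 fibers and 63 bp downstream in P0.5 fibers, both in intron 1, and neither epithelium list had a peak there. Cryge had its summit 67 bp upstream in E14.5 epithelium, while the E14.5 fiber peak had its highest point 2101 bp downstream, in intron 2.

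That place in Cryge, intron 2 just before exon 3, was shared by all 4 lists. The summits lay 2162, 2101, 2163 and 2195 bp downstream of the start site in list order, with ranks of 15.2%, 5.01%, 58.5% and 15.7%. In Crygd, every list but E14.5 fibers had a summit in exon 3. These lay 1381 bp downstream in E14.5 epithelium, 1406 bp in P0.5 epithelium and 1368 bp in P0.5 fibers, within 38 bp of each other. The wide E14.5 fiber peak covered that site with its summit at the start of the gene. The places in Cryge and Crygd were not aligned with each other.

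The best peak over the promoter (2 kb on each side of the start site) or the body was in the top 10% of its list for 7 of 8 genes in E14.5 fibers, against 53.1% of all genes. In E14.5 epithelium it was so for 1 of 8, Crygc (47.2% of all genes). At P0.5 it was so for 0 of 8 in epithelium (31.2%) and for 0 of 8 in fibers (33.5%). Within the E14.5 fiber list the highest was that of Cryga, at 1.30%, followed by Crygb at 3.51% and Crygc at 3.57%. In list order Cryga stood at 61.2%, 1.30%, 66.3% and 15.7%. Crygn ranked highest of the 8 genes in both P0.5 lists, at 33.9% in epithelium and 11.4% in fibers.

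**Figure D3:**
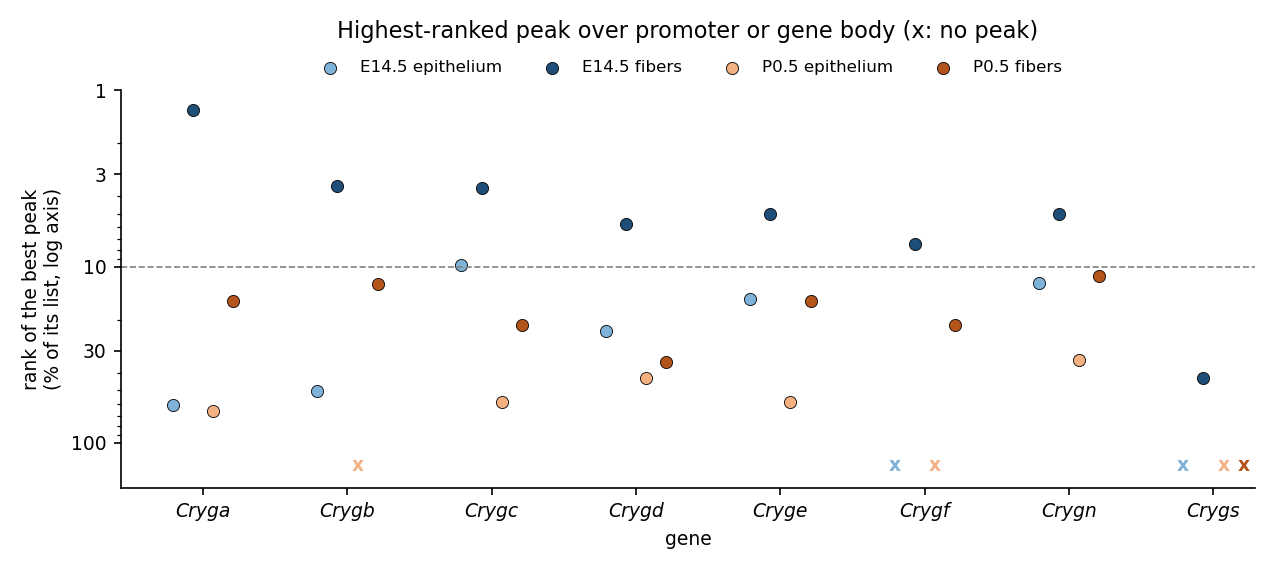
Rank of the highest-ranked peak over promoter or gene body for each gene and list, as a percentage of the list on an inverted log axis, with a dashed line at 10% and a cross where a list has no such peak. E14.5 fiber points lie above the line in 7 genes, and Crygs has a point only in E14.5 fibers, at 42.8%.

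At E14.5 a peak touched the promoter in 6 of 8 genes in epithelium (70.3% of 21000 genes) and in 8 of 8 in fibers (71.2%). At P0.5 it did so in 4 of 8 in epithelium (67.0%) and in 7 of 8 in fibers (64.6%). The bodies of Crygb, Crygc, Crygd and Crygf end at or near the 2 kb mark, so for them the count takes in nearly the whole gene. Crygb and Crygf lacked a peak there in P0.5 epithelium along with Cryga and Crygs.

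Between the genes of the cluster, E14.5 fiber peaks covered 55.2% of the 10.021 kb from Cryge to Crygd, 76.2% of the 8.084 kb from Crygd to Crygc and 81.4% of the 6.689 kb from Crygc to Crygb. The same 3 stretches were covered over 5.74%, 7.57% and 7.64% by E14.5 epithelium peaks. In the newborn lists the shares were 2.01%, 3.90% and 2.60% (epithelium) and 3.72%, 1.21% and 1.60% (fibers). Between Crygb and Cryga the pattern broke off. In those 18.098 kb the E14.5 fiber list covered 19.9%, and a stretch of 12.701 kb (chr1:65083197-65095897) held 0 peaks of any list. Repeated sequence was not counted in this stretch, so whether reads could be placed there was not tested.

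Downstream of Cryge, which is the outer end of the cluster, a narrow peak stood 40.8 kb from the start site in every list but that of P0.5 fibers, with widths of 163, 195 and 151 bp and ranks of 20.9%, 12.1% and 29.6%. The 150 bp around its summits held the CTCF motif and the Sox motif ACAATG. CTCF binds at boundaries of chromatin domains. Of all peaks, 4.97%, 3.84%, 4.63% and 2.82% in list order had this CTCF motif in the 150 bp around the summit. Upstream of Cryga, at the other end, a site 9.56 to 9.63 kb away had a summit in the same 3 lists. It lies inside the genes D630023F18Rik and Gm36358 and held AGGTCA but not the CTCF motif. All sites with a summit in 3 lists (10 sites) or in 4 lists (10 sites) were searched in this way. Among them, the CTCF motif was found only at the site downstream of Cryge and at sites near Crygn and Crygs described below.

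The peaks around Crygf lay on 1 side. In E14.5 fibers all 14 had their summit downstream of the start site, out to 36.0 kb, and 0 had it in the 50 kb upstream. E14.5 epithelium had 1 peak in this window, 24.3 kb downstream at a rank of 19.5%, inside an E14.5 fiber peak. P0.5 fibers had the 1 peak at the start site, 144 bp wide at a rank of 21.4%, and P0.5 epithelium had 0. No protein-coding gene other than Crygf lies in the window.

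Crygn carried 2 sites at which all 4 lists met, at its start and just past its last exon. At the start the summits lay 65, 31, 150 and 74 bp upstream in list order, with ranks of 19.5%, 5.01%, 39.5% and 11.4%. Past the last exon they lay 6969, 6971, 6969 and 6965 bp downstream of the start site, all within 6 bp, with ranks of 12.3%, 5.38%, 33.9% and 11.4%. Of the 10 sites shared by all 4 lists in the windows, this had the narrowest spread. Its sequence is therefore shown, with the CTCF motif in capitals.
Site past the last exon of Crygn (chr5:24750805-24750954, plus strand): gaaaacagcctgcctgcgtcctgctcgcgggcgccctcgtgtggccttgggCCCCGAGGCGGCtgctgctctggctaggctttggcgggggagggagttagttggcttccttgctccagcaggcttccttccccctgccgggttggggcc

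The peak that holds this summit was 840 bp wide in E14.5 epithelium, 870 bp in P0.5 epithelium and 406 bp in P0.5 fibers, and it overlapped exon 4, of which 100%, 100% and 96.8% were covered. In E14.5 fibers it was the peak of 11984 bp. That peak and its neighbour of 2815 bp over the start left only a part of intron 2 uncovered, of which 92.3% lay in peaks. Exon 2 of Crygn was covered in no other list.

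Around Crygs the strong peaks stood away from the gene. On the gene itself only E14.5 fibers had peaks, 3 in all, and the 1 over the start site was 739 bp wide at a rank of 58.1%. The highest of the 3, in intron 1, ranked at 42.8%. Exons 2 and 3 were covered in 0 lists. By contrast, a site 10.9 kb downstream of the start site, beyond the 3′ end, ranked at 3.39%, 3.49%, 5.87% and 9.32% in list order, with summits within 17 bp. A second, 15.6 to 15.7 kb downstream, ranked at 9.59%, 6.87%, 27.9% and 7.65%. Both lie in Gm30416, a noncoding gene that overlaps the region, and their ranks in E14.5 fibers are above those of all 3 peaks on Crygs. Their sequences are shown with the matches to the searched motifs in capitals.
Site 10.9 kb downstream of Crygs (chr16:22800457-22800606, plus strand): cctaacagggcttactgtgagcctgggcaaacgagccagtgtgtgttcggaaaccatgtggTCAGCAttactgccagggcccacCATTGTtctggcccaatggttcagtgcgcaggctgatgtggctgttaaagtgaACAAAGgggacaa
Site 15.6 kb downstream of Crygs (chr16:22795677-22795826, plus strand): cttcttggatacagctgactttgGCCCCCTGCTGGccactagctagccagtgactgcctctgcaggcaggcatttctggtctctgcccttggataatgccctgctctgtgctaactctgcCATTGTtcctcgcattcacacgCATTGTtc

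The nearer site held TGCTGA on the minus strand and the Sox motifs ACAATG on the minus and ACAAAG on the plus strand. In E14.5 fibers 20.6% of all peaks had TGCTGA, 9.12% ACAATG and 13.1% ACAAAG in the 150 bp around the summit. The farther site held the CTCF motif and 2 matches to ACAATG. On the upstream side, 3 more sites were shared by all 4 lists. Those 9.5 kb and 33.2 kb away lie in Tbccd1. That 46.3 kb away, between Tbccd1 and Dnajb11, was the strongest peak of all windows in every list, at 0.246%, 0.121%, 1.16% and 3.15%. An E14.5 epithelium summit 45.5 kb upstream still lay in Tbccd1, so the strongest site is near an end of that gene. Whether it is a promoter of Tbccd1 or Dnajb11 was not tested. The site 33.2 kb away held GGAATG, and those 9.5 kb and 46.3 kb away held none of the searched motifs. Which gene any of these sites acts on is not measured by ATAC-seq.

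**Figure D4:**
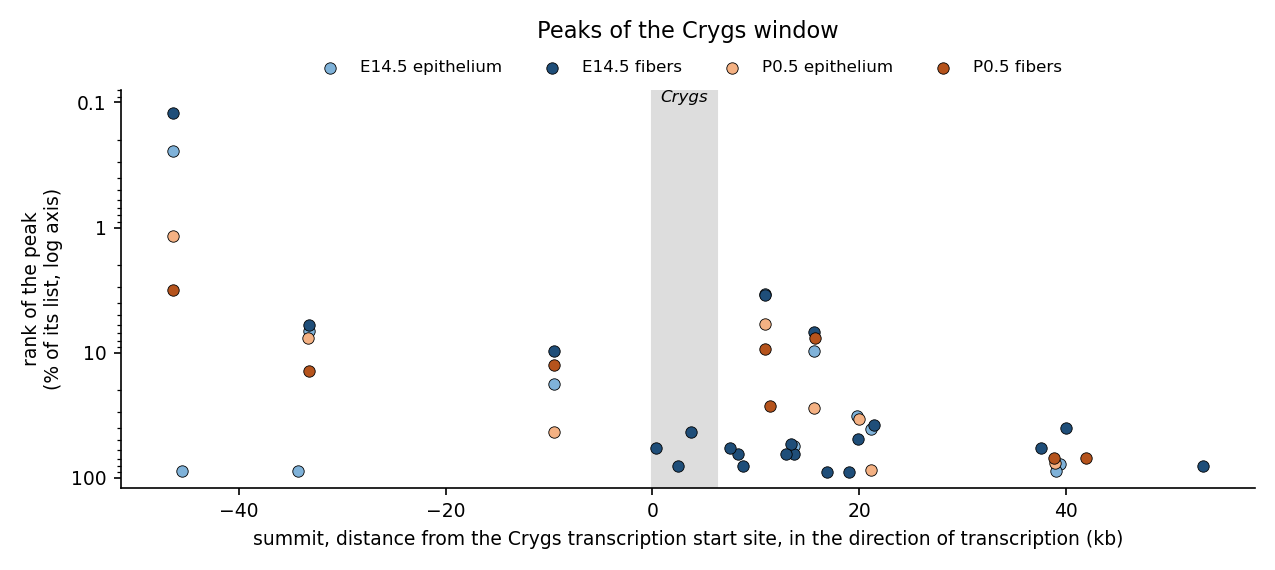
Peaks whose nearest gamma crystallin gene is Crygs, by distance of the summit from the Crygs start site and by rank within the list on an inverted log axis, with the gene shaded. Inside the gene there are E14.5 fiber peaks only, at ranks of 42.8% and weaker, while the sites 10.9 and 15.6 kb downstream and the 3 upstream sites hold points of all 4 lists.

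Counted over whole windows, the locus of the 5 clustered genes held 19, 38, 9 and 15 peaks in list order. Crygf held 1, 14, 0 and 1, Crygn 16, 23, 7 and 17, and Crygs 12, 21, 8 and 8. With equal numbers of peaks in each list, E14.5 fibers kept 47 of their 96 window peaks. The cluster then held 16, 23, 9 and 15, Crygf 1, 8, 0 and 1, Crygn 7, 8, 7 and 16, and Crygs 8 in each list, so E14.5 fibers had the highest count of the 4 lists at the cluster and Crygf only. With a q value under 0.001, P0.5 fibers kept 24 of 41, of which 8 were in the cluster and 9 around Crygn. Peaks covered 3.65%, 26.3%, 1.17% and 2.50% of the cluster locus, against 1.40%, 2.25%, 0.742% and 0.677% of the genome. The Crygn locus was covered over 5.14%, 26.2%, 1.84% and 4.23%, the Crygf locus over 0.229%, 15.0%, 0% and 0.141%, and the Crygs locus over 5.13%, 10.9%, 3.52% and 1.96%. In E14.5 fibers the cluster and Crygn therefore had nearly equal shares, and Crygs the smallest.

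Peaks of the 4 lists within 10 bp of each other were merged, which gave 102 regions. Of these, 62 were in E14.5 fibers alone, 14 in all 4 lists, 9 in both E14.5 lists alone, 5 in P0.5 fibers alone and 1 in E14.5 epithelium alone. Of the 185271 regions merged in the same way over the genome, 29.3% were in E14.5 fibers alone and 10.9% in all 4 lists. No region was in P0.5 epithelium alone. The genome shares of the other classes were not counted, so their counts cannot be set against the genome. With equal numbers of peaks there were 56 regions, of which 21 were in E14.5 fibers alone (12.5% over the genome) and 12 in all 4 lists (16.4%). Of these 56, 1 was in P0.5 epithelium alone and 5 in P0.5 fibers alone. With a q value under 0.001 there were 79, of which 48 were in E14.5 fibers alone (29.5%) and 12 in all 4 lists (12.1%). At that q value 0 regions were in P0.5 fibers alone. As deposited, the Crygs locus had the most regions in all 4 lists, 6 of 23, and the Crygf locus had 0 of 14. A merged region can join separate places, since 1 wide E14.5 fiber peak can hold several short ones. By summits, joined where neighbours were at most 150 bp apart, a gap chosen after the data were seen, there were 137 sites. Of these, 10 were in all 4 lists and 95 in 1 list. For summit sites the share over the genome was not counted.

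**Figure D5:**
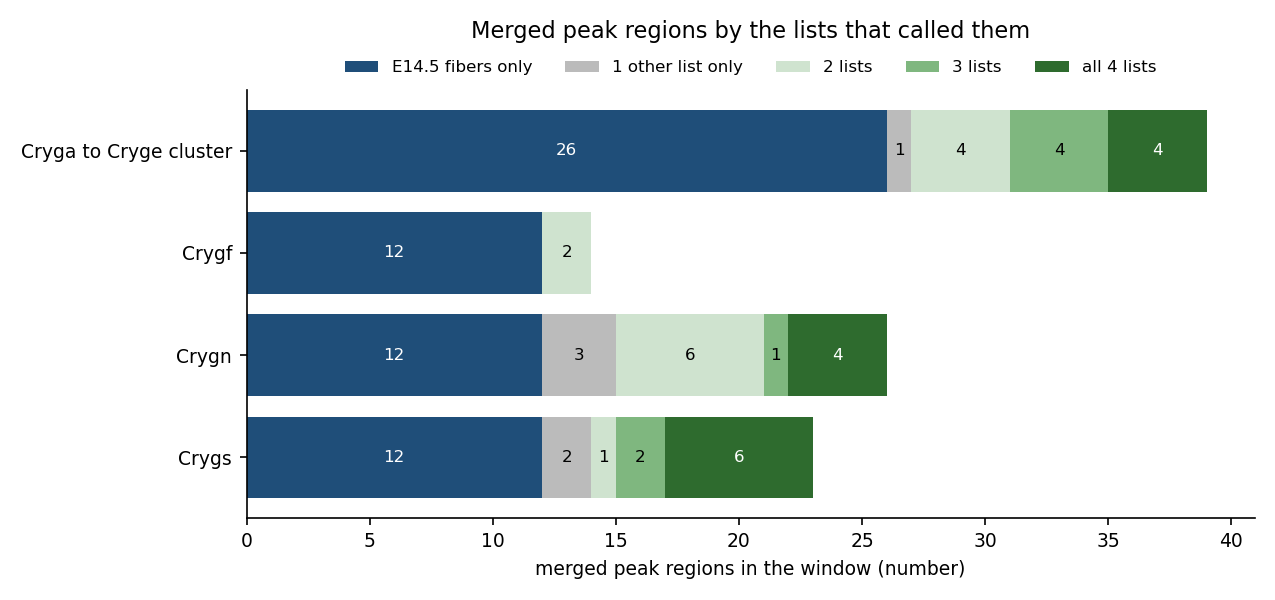
Number of merged peak regions in each window locus by the lists that called them. Regions of E14.5 fibers alone, 29.3% of all regions of the genome, are the largest class in each locus (26, 12, 12 and 12), and regions of all 4 lists number 4, 0, 4 and 6.

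Among 8 crystallins of the alpha and beta families, 7 had more coverage in the fibers of E14.5 than in the epithelium (66.6% of all genes) and 1, the chaperone gene Cryaa, was at 100% in both. At P0.5, 7 had more in fibers (35.8%) and 1, Cryab, had less. At least 50% was covered in 2, 7, 0 and 2 of them (1.91%, 3.69%, 0.341% and 0.520% of all genes). In P0.5 fibers 4 of them, Cryaa (100%), Crybb3 (71.4%), Crybb1 (48.8%) and Cryba4 (45.9%), were above the highest gamma crystallin there, Cryga with 36.8%. The 3 other genes whose 4 coverages lay nearest to the medians of the gamma crystallins, by Euclidean distance over the 4 lists among 19623 genes, were the beta crystallin gene Cryba1 (7.70 points away), Mip, which codes for the water channel of the fibers (12.1 points), and the gene of the transcription factor Fev (16.4 points). Cryba1 was covered over 8.76%, 100%, 0.898% and 12.8%.

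Of 9 genes of transcription factors known to act on crystallin genes or in the lens (Maf, Sox1, Sox2, Prox1, Pax6, Hsf4, Pitx3, Gata3, Six3), 9 had more coverage in fibers at E14.5 (66.6% of all genes), and 4 did at P0.5 (35.8%). The other 5 had more in epithelium at P0.5 (43.9%). At least 50% was covered in 3, 7, 0 and 1 of the 9 genes (1.91%, 3.69%, 0.341% and 0.520% of all genes). Maf itself was covered over 35.4%, 38.1%, 16.4% and 34.6%, and Sox1 over 54.9%, 76.9%, 41.7% and 56.7%. Hsf4, a factor of fiber maturation, had 29.6%, 71.0%, 10.3% and 33.0%.

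The near-identical copies in the family limit what can be assigned to a single gene. Exon 2 was identical at 86.4 to 99.2% of its bases in the pairs among Cryga to Crygf, with Crygd and Cryge the most alike, and at 58.0 to 66.7% in pairs with Crygn or Crygs. Of the 75-base stretches, the length of the reads, that touch exon 2, 45.7% in Crygd, 59.9% in Cryge, 47.3% in Crygb, 47.3% in Crygc and 18.3% in Crygf occurred more than once in the genome. In Cryga, Crygn and Crygs the share was 0%. With up to 2 mismatches to another gamma crystallin gene, it was 79.5% in both Crygd and Cryge, 61.8% in Crygf and 35 of the 317 stretches in Cryga. From 300 bp upstream to 50 bp downstream of the start site, repeated stretches were 0.943% in Crygd and in Cryge and 0% in the other 6 genes, and with up to 2 mismatches they reached 24.3% at most, in Cryge. In the last exon, 60 of the 414 stretches in Cryge and 60 of the 401 in Crygf were repeated, and 32.1% and 32.4% were within 2 mismatches of another gamma crystallin gene. The other 6 genes had 0% repeated there. Over the whole body the largest repeated share was that of Cryga, 17.0%, while 1.15% of its stretches lay within 2 mismatches of another gamma crystallin gene. Values in exon 2 of Crygb to Crygf, and in the last exons of Cryge and Crygf, are thus uncertain as to the gene, and those at start sites rest mostly on sequence that occurs once.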

How the data were processed

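The authors trimmed 75-bp paired-end reads (Trim Galore 0.4.1), mapped them to mm10 (Bowtie2 2.3.3.1), removed mitochondrial and duplicated reads (SAMtools 1.2, Picard 2.1.1) and ran MACS2 2.1 on both libraries of a group together, keeping peaks with a q value up to 0.05. The methods name neither a control library nor a filter on mapping quality. The deposited fold enrichment is a ratio to the local background, the deposited −log10 p and q values are those at the summit, and the deposited score, not used here, is 10 times the −log10 q value as a whole number. All columns were assigned to a group, and 0 were left over.

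Starts were converted to 1-based coordinates. Peaks were counted and placed on RefSeq gene models in python 3.11.15 (pandas 2.3.3, numpy 2.4.6). Sequences were read with pysam 0.24.0 and aligned with biopython 1.88, and figures drawn with matplotlib 3.10.9. Lists of equal numbers held the 58592 strongest peaks by p value. Named genes are the 8 genes, fixed lists of other crystallins, factors and markers, the 3 nearest genes by coverage, and neighbours that place a peak. The genes and lists were chosen with earlier results of these data known.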

Additional observations from a re-analysis of the deposited data

How the results depend on the processing

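The count of genes with at least 50% of the body covered and that of genes with a promoter peak stayed within 1.5 times under every alternative except a limit of 25%, at which 1 gene in place of 0 was covered in E14.5 epithelium and likewise in fibers at P0.5. The number of window peaks moved with windows of 10 kb to 30 (E14.5 epithelium), to 54 in the fiber list of that stage and to 15 (P0.5 epithelium), to 47 in E14.5 fibers with equal numbers of peaks, and to 24 in P0.5 fibers with a q value under 0.001. The fewer bases and peaks of these alternatives lower the counts by construction. Crygd turned to -1.62 points (P0.5 fibers minus P0.5 epithelium) with a q value under 0.001, where part of its weak P0.5 fiber peaks drop out. Cryga turned to -3.60 points (E14.5 minus P0.5 epithelium) with equal numbers of peaks, where both of its E14.5 epithelium peaks drop out. Gene bodies of curated transcripts, and the P0.5 and stage differences, the counts by locus and the merged regions under other peak sets, were added after the data were seen. Fold enrichment and p value ordered the window peaks identically, so ranking by p value could change nothing. Leaving out a library was not run, since each list is pooled. No paired analysis was possible because the lists carry no replicate numbers.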
